A study of Canis lupus familiaris with 8 samples.

Results

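MAP kinase phosphatases are dual-specificity enzymes that switch off MAP kinases by removing phosphate from both the threonine and the tyrosine of their activation loop. Several of their genes are themselves induced by MAP kinase signalling, which makes them a negative feedback on the pathway, and their transcripts are often read as a record of recent ERK activity. They are commonly sorted by where they act and on which kinase: nuclear enzymes (DUSP1, DUSP4, DUSP5), cytoplasmic enzymes selective for ERK (DUSP6, DUSP7), and enzymes that act mainly on JNK and p38 (DUSP8, DUSP10, DUSP16). These 8 genes were taken by symbol from the exon count table of 37952 genes. A row was found for 7 of them, and all 7 passed the filter on low counts, which kept 14571 genes. DUSP4 was not analysed here, so the nuclear class was represented by DUSP1 and DUSP5.

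The cells were MDCK GII, an established dog kidney epithelial line, grown overnight as a monolayer in serum-containing medium on a collagen-coated elastic silicone membrane. In 4 wells the membrane was held at 18% strain, equal in both in-plane directions, for 2 hours, and 4 control wells were not strained. By its title, the series concerns activation of EGFR and ERK downstream of E-cadherin. The labels describe the wells as technical quadruplicates spread at random over separate stretch devices, so p-values measure the spread between wells of 1 line. In these bulk libraries, more RNA per cell and more cells carrying a transcript cannot be told apart.

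Depth was even, with 27047358 to 32478887 counts per well. All 10 kidney epithelial markers were detected, and their summed level was 5228 to 5817 CPM in control and 5564 to 5624 CPM in stretch wells (CPM, read counts relative to the TMM-scaled library size). Of 6 fibroblast markers 4 had no count in any well, as did 3 of 5 immune markers. The summed fibroblast, endothelial and immune levels were 1.648 to 4.112, 1.542 to 2.301 and 9.614 to 12.01 CPM in control wells, and 2.917 to 3.875, 1.33 to 2.366 and 10.22 to 11.54 CPM in stretch wells. Deviations of same-numbered wells from their group means were weakly correlated across genes, at 0.108 to 0.328. Only replicate 1 correlated best with its own number, and the labels do not say what a number shares. Each change is therefore given without and with the replicate number as a block, and calls made only with the block rest on this pairing.

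In unstrained wells, the ERK-directed members were the most abundant per unit of exon length. In control wells DUSP5 stood at 40.8 ± 17.4 RPKM (CPM per kilobase of exon, mean ± SD, n = 4 here and below), DUSP6 at 27.3 ± 7.94, DUSP7 at 18.2 ± 3.67 and DUSP1 at 9.64 ± 1.87 RPKM. The JNK/p38 members were lower, with DUSP10 at 4.02 ± 1.48, DUSP16 at 3.12 ± 0.337 and DUSP8 at 0.161 ± 0.0583 RPKM. Within each control well DUSP5 exceeded DUSP6 and DUSP6 exceeded DUSP7, in 4 of 4 wells each, although the ranges over wells overlapped. DUSP10 and DUSP16 did not keep an order, since DUSP10 was the higher in 2 of 4 control wells. DUSP1 lay above DUSP10, and DUSP16 above DUSP8, without overlap between wells.

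**Figure D1:**
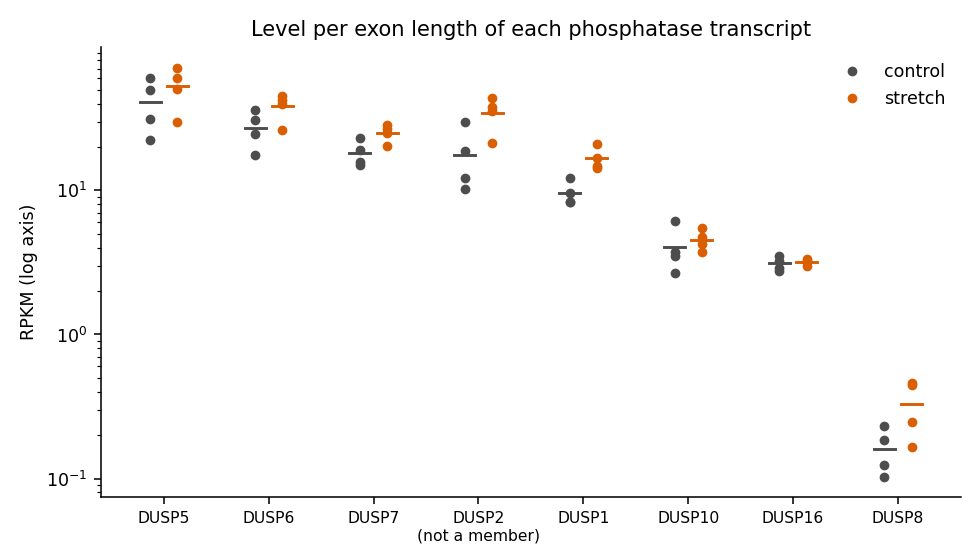
RPKM on a log axis for each phosphatase transcript in control (grey) and stretch (orange) wells; points are single wells and bars are means. The nuclear and cytoplasmic members with a row lie above the JNK/p38 members in both groups, and DUSP8, at 0.161 RPKM in control wells, lies far below the rest.

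Strain was accompanied by higher means for all 7 members, and the size differed between them. In edgeR's quasi-likelihood test without the block, 0 of 7 members had an adjusted p under 0.05 (Benjamini-Hochberg), as did 0 of 14571 genes, a background of 0%. At an unadjusted p under 0.05 there were 3 members in this fit, DUSP1, DUSP7 and DUSP8, against 3.97% of all genes. In limma-voom without the block 0 members were called, and in DESeq2 1 was, DUSP1, where 0.275% of all genes were called. With the replicate block, 3 members passed in edgeR, all higher: DUSP5, DUSP6 and DUSP7. The background of this fit was 0.7% of all genes called, and 0.528% called higher. The median log2 change of the 7 members with the block was 0.47, beside a median of -0.0022 over all genes tested. The members were chosen with earlier results of these data known. Their counts and median set beside all genes are therefore not independent evidence. Each pair was also left out of the blocked fit. Without replicate 1, 0 members passed (0.293% of all genes did), and without replicate 4, DUSP6 alone did (0.507%). Without replicate 2 the same 3 members passed (0.458%), and without replicate 3, 5 members did, with DUSP1 and DUSP10 added (1.27%). With a block of only 2 levels (replicates 1 and 2, replicates 3 and 4) 0 passed, where 0.398% of all genes did.

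**Figure D2:**
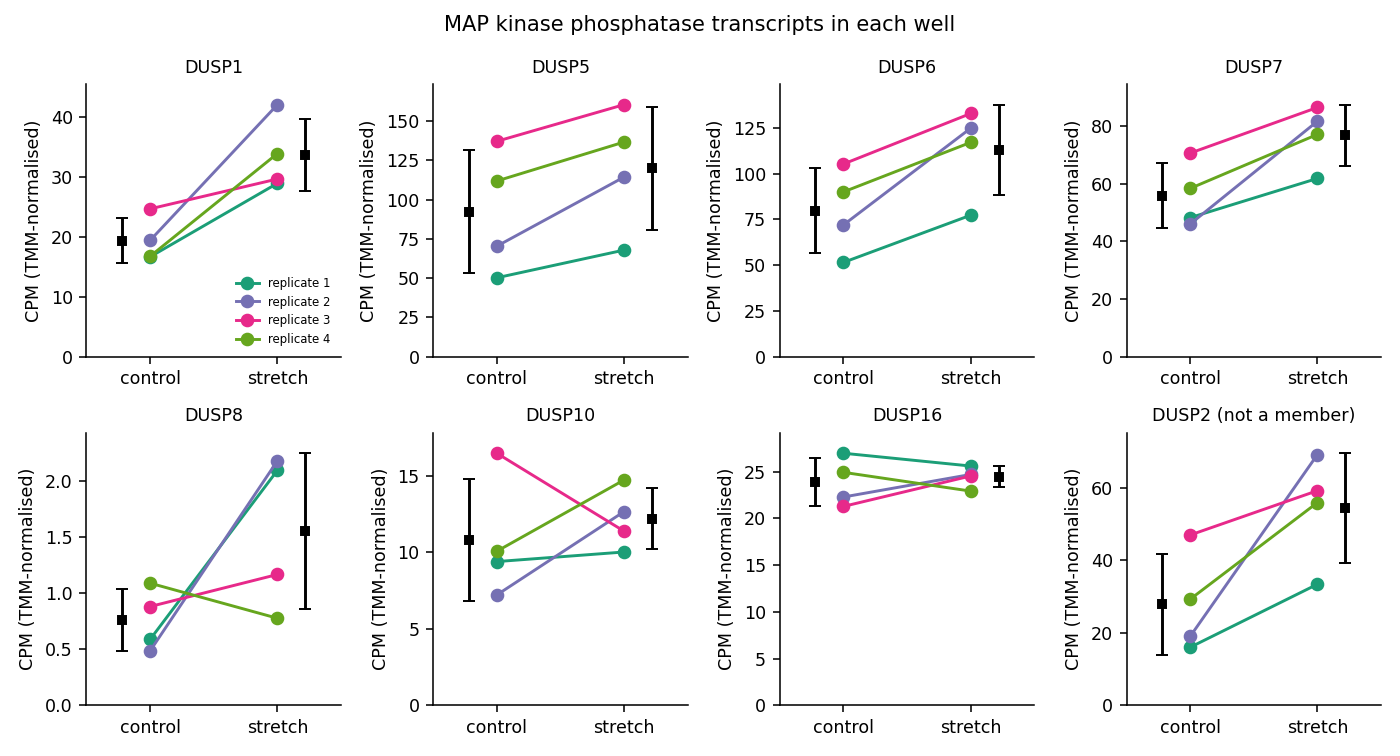
TMM-normalised CPM of 7 phosphatases and of DUSP2, which was not on the list of 8, with lines joining control and stretch wells of the same number and squares giving mean ± SD (n = 4). Lines for DUSP1, DUSP5, DUSP6, DUSP7 and DUSP2 all point upward, while those for DUSP8, DUSP10 and DUSP16 run in both directions.

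DUSP1, a nuclear phosphatase with broad activity on p38, JNK and ERK and a classical immediate-early gene, separated the groups fully. Its gene lies on chromosome 4 (40474741 to 40477792, plus strand; positions as in the deposited table, identical to RefSeq UU_Cfam_GSD_1.0). Control replicates 1 to 4 held 16.7, 19.4, 24.7 and 16.8 CPM. Stretch replicates 1 to 4 held 28.9, 42.1, 29.7 and 33.9 CPM. Every stretch well lay above every control well, as was the case for 1.3% of all genes tested, and no other member showed this. The log2 change was 0.80 ± 0.15 (SE) without the block, with a 95% interval from 0.46 to 1.13, and 0.80 ± 0.14 with it. Neither passed after adjustment (edgeR, adjusted p = 0.307 without and 0.115 with the block). In DESeq2 the same change passed, with an adjusted p of 1.2e-04 without and 0.0025 with the block, where DESeq2 called 0.995% of all genes. Leaving out control replicate 3, the highest of its group, gave 0.93 and an adjusted p of 0.0179 in edgeR without the block. An uncharacterised gene on the opposite strand overlaps a DUSP1 exon and had 0 counts in all wells.

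DUSP5, the nuclear phosphatase specific for ERK, behaved differently from DUSP1 in its spread. It lies on chromosome 28 (22056666 to 22069360, plus strand). The control wells held 50.3, 70.4, 137.2 and 111.9 CPM for replicates 1 to 4, and the stretch wells 67.9, 114.4, 160.6 and 136.7 CPM. The groups overlapped widely, because replicates 3 and 4 were high in both, yet each stretch well exceeded the control well of its number. Without pairing, the change was 0.37 ± 0.38 on the log2 scale (95% interval -0.53 to 1.28; edgeR, adjusted p = 0.999). This unpaired value depended on single wells, at 0.17 without control replicate 1, 0.20 without stretch replicate 3, 0.57 without stretch replicate 1 and 0.63 without control replicate 3. With the block it was 0.41 ± 0.07, from 0.25 to 0.56 (edgeR, adjusted p = 0.0297). Among unstrained wells, replicates 3 and 4 stood 1.06 above replicates 1 and 2 on the log2 scale, more than the change with strain.

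DUSP6, the ERK-selective cytoplasmic phosphatase whose transcript is a widely used readout of ERK activity, rose in the blocked fit. The gene is on chromosome 15 (30628124 to 30632696, minus strand). Replicates 1 to 4 gave 51.5, 72.0, 105.4 and 90.1 CPM in control wells. They gave 77.4, 124.9, 132.96 and 117.2 CPM in stretch wells. Stretch replicate 1 fell within the control range and the other stretch wells lay above it. Its log2 change came to 0.50 ± 0.25 without the block (95% interval -0.10 to 1.10; edgeR, adjusted p = 0.999) and 0.52 ± 0.07 with it (0.37 to 0.67; adjusted p = 0.0061). Replicates 3 and 4 of the unstrained wells exceeded replicates 1 and 2 by 0.68 on the log2 scale. The call of DUSP6 was lost with the block when replicate 1 was left out (edgeR, adjusted p = 0.058), at a log2 change of 0.50.

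DUSP7, the closest cytoplasmic relative of DUSP6 among the members and likewise ERK-selective, changed by a similar amount. It is encoded on chromosome 20 (38084030 to 38091307, plus strand). The control wells had 48.2, 45.99, 70.6 and 58.3 CPM and the stretch wells 61.8, 81.6, 86.4 and 77.1 CPM, in the order of their replicate numbers. Only stretch replicate 1 lay within the control range. On the log2 scale it changed by 0.46 ± 0.15 without the block (95% interval 0.13 to 0.79; edgeR, adjusted p = 0.999) and 0.47 ± 0.08 with it (0.29 to 0.65; adjusted p = 0.0337). With the block, DUSP7 gave 0.50 without replicate 1 and 0.49 without replicate 4, as large as with all pairs, and missed the threshold both times (edgeR, adjusted p = 0.095 and 0.186). DUSP5 likewise gave 0.40 and 0.45 (edgeR, adjusted p = 0.154 and 0.0865).

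**Figure D3:**
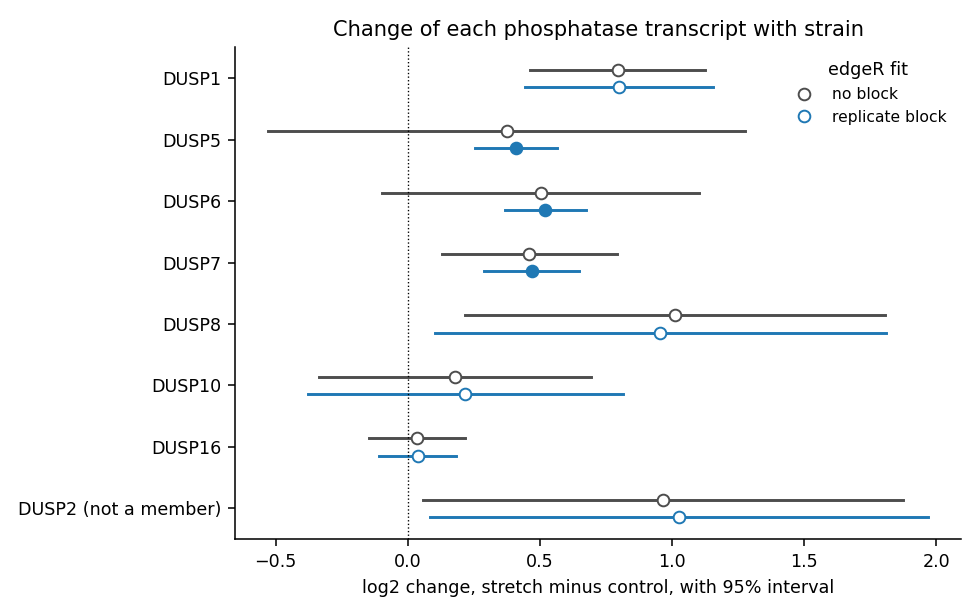
log2 change of each phosphatase transcript, stretch minus control, with its 95% interval, from edgeR without (grey) and with (blue) the replicate block; filled points had an adjusted p under 0.05. The block narrows the intervals of DUSP5, DUSP6 and DUSP7 around nearly the same estimates, and leaves those of DUSP8 and DUSP10 wide.

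None of the JNK/p38 members passed without or with the block. DUSP8 had the largest estimate of the 7 and the weakest data, with 15 to 61 counts per well. It lies on chromosome 18 (46246738 to 46264877, minus strand). Its control wells held 0.587, 0.485, 0.880 and 1.09 CPM and its stretch wells 2.09, 2.18, 1.17 and 0.776 CPM for replicates 1 to 4. Stretch replicates 1 and 2 were the highest wells, and stretch replicate 4 fell below control replicates 3 and 4. The fitted log2 change was 1.01 ± 0.37 without the block (95% interval 0.22 to 1.81; edgeR, adjusted p = 0.999) and 0.96 ± 0.39 with it (adjusted p = 0.483). With the block it was 0.58 without replicate 2 and 1.45 without replicate 4. Taken alone, replicates 1 and 2 gave 1.99 (edgeR, adjusted p = 0.0139), in a fit that called 51 of 14656 genes. Replicates 3 and 4 gave -0.024 (edgeR, adjusted p = 0.999), in a fit that called 25 of 14750. The difference between these changes was -2.02 ± 0.54 on the log2 scale and did not pass over all genes (edgeR interaction term, unadjusted p = 9.7e-04, adjusted p = 0.587). This division of the wells was taken from the same data, so these p-values are not independent evidence.

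DUSP10, which acts on p38 and JNK, is on chromosome 38 (16889953 to 16928100, minus strand). Control wells held 9.40, 7.22, 16.5 and 10.1 CPM, and stretch wells 10.03, 12.7, 11.4 and 14.7 CPM. Control replicate 3 was the highest of the 8 wells, and 3 of 4 pairs were higher with strain. Fitted without the block, the log2 change was 0.18 ± 0.23, with a 95% interval from -0.34 to 0.69, and 0.22 ± 0.23 with it (edgeR, adjusted p = 0.999 and 0.902). The value depended on single wells and pairs. With the block it was 0.036 without replicate 2, 0.10 without replicate 4 and 0.49 without replicate 3, and only the last of these passed (edgeR, adjusted p = 0.989, 0.955 and 0.0339). Without the block it was 0.031 without control replicate 2, 0.078 without stretch replicate 4 and 0.46 without control replicate 3.

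DUSP16, a JNK-directed phosphatase that moves between nucleus and cytoplasm, was the steadiest of the 7 transcripts. It is on chromosome 27 (12346927 to 12468377, minus strand). Control wells held 26.99, 22.3, 21.3 and 24.9 CPM, and stretch wells 25.6, 24.7, 24.6 and 22.9 CPM. All 4 stretch wells lay inside the control range, and 2 of 4 pairs were higher. Its fitted log2 changes were 0.034 ± 0.084 (no block) and 0.037 ± 0.069 (block; edgeR, adjusted p = 0.999 and 0.948). The 95% interval with the block ran from -0.11 to 0.18. The unblocked value was 0.0997 without control replicate 1, 0.0057 without control replicate 2 and -0.016 without control replicate 3. An exon of CREBL2 on the opposite strand overlaps DUSP16, and since the strand setting of the counting is not given in the sources used here, its values are uncertain.

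**Figure D4:**
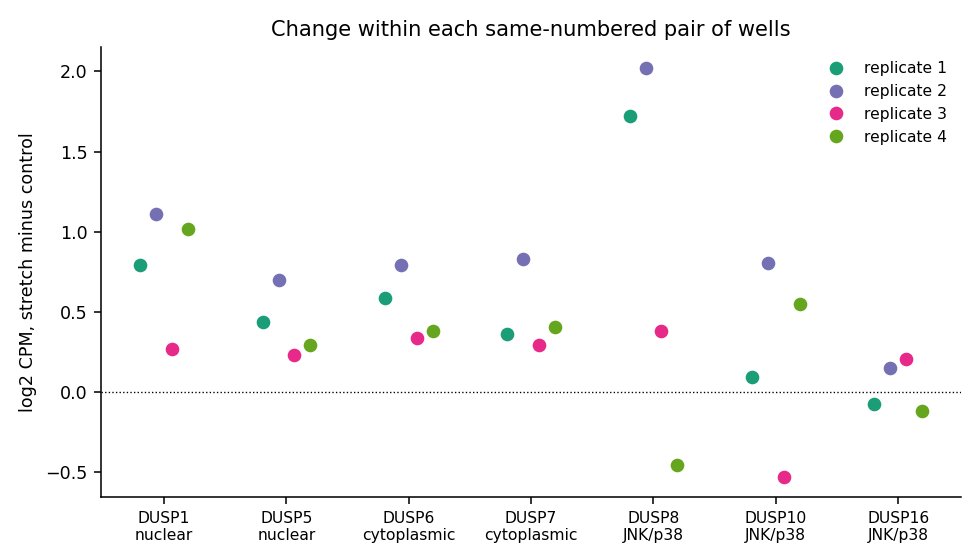
Difference in log2 CPM between the stretch and the control well of the same number for each member, grouped by class. Values for DUSP1, DUSP5, DUSP6 and DUSP7 are above 0 in 4 of 4 pairs, while DUSP8, DUSP10 and DUSP16 have pairs on both sides of 0.

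The classes were set side by side pair by pair. Averaged over class members as log2 CPM, the cytoplasmic pair DUSP6 and DUSP7 differed between stretch and control wells by 0.47, 0.81, 0.31 and 0.39 in replicates 1 to 4. The nuclear pair DUSP1 and DUSP5 differed by 0.61, 0.91, 0.25 and 0.65, and the JNK/p38 members by 0.58, 0.99, 0.018 and -0.010. Replicate 2 gave the largest difference in each class. The cytoplasmic class exceeded the nuclear class in 1 of 4 pairs and the JNK/p38 class in 2 of 4, so no pair-by-pair order between the cytoplasmic and the other classes was seen. The mean differences were 0.50 for cytoplasmic, 0.60 for nuclear and 0.40 for JNK/p38 members, and the last of these included differences of 1.72 and 2.02 for DUSP8 in replicates 1 and 2. These class means are descriptions and were not tested, nor was the difference between members that passed and members that did not. Higher values in 4 of 4 pairs were found for 4 of the 7 members, DUSP1, DUSP5, DUSP6 and DUSP7, against 8.45% of all genes.

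For 6 of 7 members the difference with strain was larger in replicates 1 and 2, and for 6 of 7 the unstrained level was lower there; DUSP16 was the exception to both. The difference is computed from the same unstrained wells, so these facts are linked. The same counts were not made over all genes, so neither is known to be particular to the members. For DUSP1 the lower level rested on control replicate 3, since control replicate 4 (16.8 CPM) lay below control replicate 2 (19.4 CPM). Fitted within replicates 1 and 2 alone, the log2 changes were 0.97 for DUSP1, 0.59 for DUSP5, 0.71 for DUSP6, 0.61 for DUSP7 and 0.45 for DUSP10. Within replicates 3 and 4 they were 0.63, 0.26, 0.36, 0.35 and -0.012. DUSP16 gave 0.033 and 0.042. In edgeR's test of the interaction, 0 of 7 members passed without or with the block, against 0% and 0.0686% of all genes. With the block, the interaction had an unadjusted p of 0.00148 for DUSP6 (edgeR, adjusted p = 0.327). It was 0.00212 for DUSP8 and 0.00344 for DUSP5 (edgeR, adjusted p = 0.399 and 0.448). The division of the wells by number was taken from the data and has no label, and its part in the changes was not tested further.

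The share of each member in the family was followed per well. Summed over the 7 members, control wells held 71.0, 86.1, 141.1 and 114.9 RPKM and stretch wells 98.6, 149.3, 167.1 and 151.1 RPKM. DUSP6 took 26.4 ± 1.66% of this sum in control and 27.3 ± 0.929% in stretch wells. DUSP5 took 38.3 ± 5.73% and 36.7 ± 5.51%, and DUSP7 took 18.1 ± 2.73% and 18.0 ± 1.75%. DUSP1 went from 9.71 ± 2.09% to 12.2 ± 2.68%, and DUSP16 from 3.29 ± 1.26% to 2.36 ± 0.694%. DUSP10 went from 3.92 ± 0.870% to 3.28 ± 0.562%, and DUSP8 from 0.157 ± 0.0377% to 0.254 ± 0.157%. The shift in share was smaller than the control SD for DUSP5, DUSP6, DUSP7, DUSP10 and DUSP16. For DUSP1 and DUSP8 it was larger than the control SD and smaller than the stretch SD. These SDs are between wells of a group and take no account of the replicate numbers. Shares were not compared pair by pair, so a small shift in the same direction within pairs would not be seen here.

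DUSP2, a nuclear inducible phosphatase of the same family, was not among the 8. Its control wells held 16.0, 19.0, 47.0 and 29.3 CPM, and its stretch wells 33.4, 69.2, 59.2 and 55.9 CPM. All 4 pairs were higher, and control replicate 3 exceeded stretch replicate 1. Fits without and with the block gave log2 changes of 0.97 ± 0.38 and 1.03 ± 0.31, and neither passed (edgeR, adjusted p = 0.999 and 0.519). DUSP9, a further cytoplasmic ERK-directed member of the family, had 2 counts in control replicate 1 and 0 in the remaining wells.

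The rest of the MAP kinase system was read from 7 lists of 86 genes, of which 73 were tested. In edgeR, 0 of the 73 passed without the block, as did 0% of all genes. Before adjustment 7 of the 73 had p under 0.05 in this fit, against 3.97% of all genes. The blocked fit called 1 of the 73, where 0.7% of all genes were called. The kinase modules, which hold the phosphatases' substrates and their upstream kinases, had median estimates near 0. In the ERK module, from RAS and RAF to ERK and the kinases it activates, 0 of 17 tested genes passed and the median log2 change with the block was 0.0024, with a range from -0.06 to 0.21. The kinases MKNK1 and MKNK2, which ERK and p38 activate, had the smallest p, at 0.21 ± 0.08 and -0.06 ± 0.05 with the block (edgeR, adjusted p = 0.447 and 0.827).

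In the JNK and p38 module 0 of 15 tested genes passed, with a median of -0.015 with the block. MAP2K3, an activator of p38, had the smallest p, at 0.21 ± 0.05 (edgeR with the block, adjusted p = 0.0838), and MAPKAPK2, a kinase downstream of p38, followed at -0.09 ± 0.05 (adjusted p = 0.694). In the ERK5 module 0 of 6 passed. Its transcription factors MEF2A and MEF2D stood at 0.21 ± 0.05 and 0.16 ± 0.05 with the block (edgeR, adjusted p = 0.0683 and 0.265), and exons of MEF2A overlap genes on the opposite strand. The small and atypical dual-specificity phosphatases, which lack the kinase-binding domain of the members, gave 0 of 10, with log2 changes from -0.10 to 0.16 and a median of 0.029. DUSP14 had the smallest p in that list, at 0.16 ± 0.05, and STYX, a catalytically inactive relative, stood at -0.08 ± 0.06 (edgeR with the block, adjusted p = 0.303 and 0.8). Among other phosphatases that act on MAP kinases or their activators, 0 of 8 passed, and PPM1L and PPM1D, of the PP2C family, stood at -0.17 ± 0.06 and -0.12 ± 0.05 (edgeR with the block, adjusted p = 0.373 and 0.404).

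The list of other ERK-responsive genes had a median log2 change of 0.36 both without and with the block. With the block 12 of 16 were higher, beside 7109 of 14571 genes tested. ETV4, ETV5, ETV1 and SPRED1 were lower, at -0.057 ± 0.12, -0.11 ± 0.11, -0.13 ± 0.10 and -0.0091 ± 0.055, and none of these passed. Of the 16, 1 passed with the block, where 0.7% of all genes were called and 0.528% were called higher. EGR1, an immediate-early transcription factor gene, had 223 ± 23.7 CPM in control and 299 ± 43.9 CPM in stretch wells. It rose by 0.42 ± 0.05 on the log2 scale, higher in 4 of 4 pairs (edgeR, adjusted p = 0.00169 with and 0.716 without the block). EPHA2, a receptor tyrosine kinase gene, stood at 0.53 ± 0.09 with the block (edgeR, adjusted p = 0.0953). These lists were drawn up with earlier results of the same wells known, so their direction is not independent evidence.

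**Figure D5:**
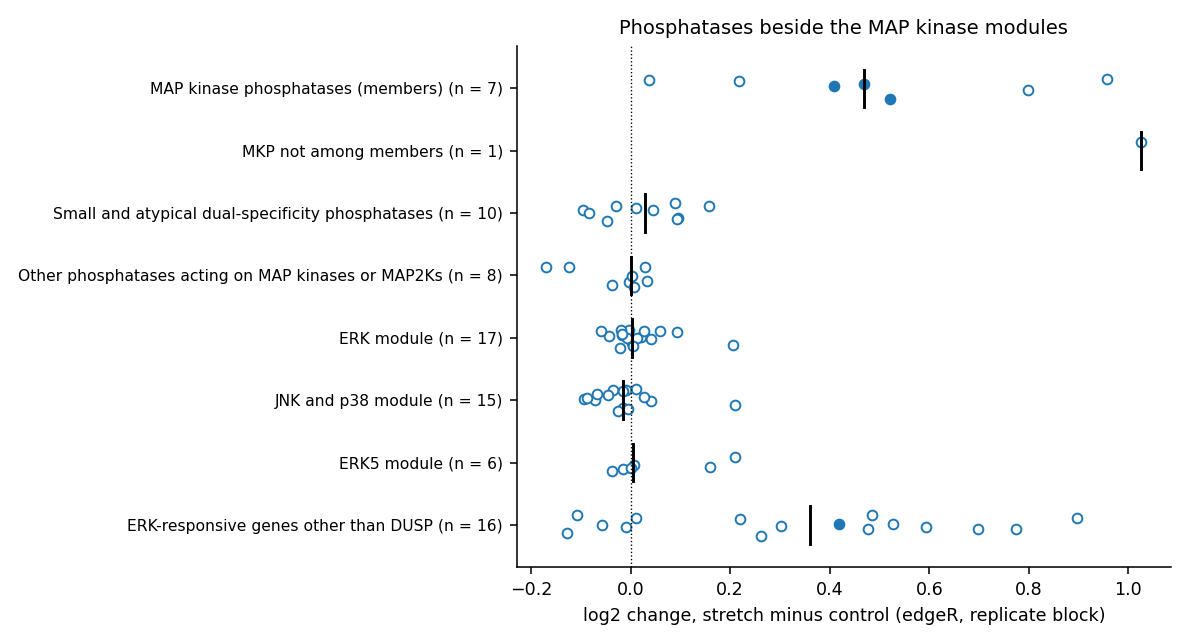
log2 change with the replicate block (edgeR) for the tested genes of the phosphatase list and of 7 related lists; points are genes, filled where the adjusted p was under 0.05, vertical bars are medians, and vertical position within a row is arbitrary. The kinase modules and the atypical phosphatases centre on 0, whereas the members and the ERK-responsive genes have medians of 0.47 and 0.36.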

How the data were processed

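Libraries of polyA-selected RNA (TruSeq, stranded, per the labels' protocols) from 4 control and 4 stretch wells were analysed. The authors deposited unnormalised exon counts for each gene. The submitters' processing notes name FastQC 0.11.8, Trim Galore 0.6.5, STAR 2.7.3a, Subread and featureCounts; the genome build, strand setting and handling of multi-mapping reads are not given in the sources used here. Of 37952 genes in the table, 37291 matched RefSeq symbols of UU_Cfam_GSD_1.0, all 37291 with identical start and end. The table has 8 count columns, matched by library name, and gives exon length as another column, used for RPKM.

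Counts were tested in R 4.3.3 with edgeR 4.0.16 (TMM, filterByExpr with a minimum count of 10 and a minimum total of 15, robust glmQLFit, glmQLFTest, two-sided) over 14571 genes, with Benjamini-Hochberg adjustment and a threshold of 0.05. The SE is the log2 change divided by the square root of F, and intervals are at 95%. Log2 CPM used a prior count of 2. Same-numbered wells had correlated deviations from their group means across genes (0.328, 0.108, 0.182 and 0.178 for replicates 1 to 4), so the numbers were treated as pairs, although the labels do not say what a number shares and only replicate 1 correlated best with its own number among the 4. The common biological coefficient of variation was 9.43% without and 6.12% with the block. Alternatives used DESeq2 1.42.0, limma 3.58.1, other scalings, filters and omitted wells. All members were named; from each list, genes past the threshold and the 2 with the smallest p with the block were named. DUSP9, and ETV4, ETV5, ETV1 and SPRED1 for their lower estimates, were named in addition after their values were seen. The members and lists were chosen with earlier results of these data known. Plots used matplotlib 3.10.9 in Python 3.11.15.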

Additional observations from a re-analysis of the deposited data

How the results depend on the processing

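Without the block, the count of 0 members held with no filter, at least 10 counts in every well, library size only, upper-quartile or DESeq2 factors, and limma-voom; DESeq2's Wald test gave 1, and leaving out single wells gave 0 to 1 members and 0 to 12 genes of the whole table (12 without control replicate 3). Over all genes, DESeq2 gave 40 and no filter 11. With the replicate block, 3 members and 102 genes passed, and in DESeq2 4 and 145. Alternatives with the replicate block that were chosen after seeing the data gave 3 members and 97 genes with at least 10 counts in every well, 3 and 100 with limma-voom, 3 and 105 with DESeq2 size factors, 3 and 112 with upper-quartile factors, 3 and 111 with library size only, and 5 and 448 without a filter. Leaving out 1 pair with the block gave 0 to 5 members and 43 (without replicate 1), 67 (2), 186 (3) and 74 (4) genes. The block of 2 levels gave 0 members and 58 genes, replicates 1 and 2 alone 1 member (DUSP8) and 51 genes, and replicates 3 and 4 alone 0 and 25. Where wells were left out, fewer samples were fitted; otherwise the cause was not tested. The 30 alternatives kept the direction of DUSP1, DUSP5, DUSP6 and DUSP7 in every case. DUSP16 reversed without control replicate 3 (-0.016; the highest value with a well left out was 0.0997) and with the block without replicate 3 (-0.019), and DUSP8 and DUSP10 reversed in replicates 3 and 4 alone (-0.024 and -0.012). The median change of all genes stayed within 0.1 on the log2 scale of 0 in all settings. Depth limits DUSP8 most, at 15 to 61 counts per well. The number of members with a different change in replicates 3 and 4 was 0 without a filter, with library size only and with the replicate block.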

Other observations

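Transcripts that followed the members most closely over the 8 wells were sought among 13134 genes with a mean of at least 1 CPM, by Pearson's r of log2 CPM. The wells share the stretch contrast and the division by replicate number, and with this many genes and 8 wells high values arise readily, so r is a description and no p is given. For DUSP1 the closest were FOSL2 (r = 0.985, Spearman's rho 0.976), an AP-1 subunit, then CSRNP1 and CDR2 (r = 0.972 and 0.971). For DUSP5 they were RRNAD1 (r = 0.993, rho 1), KDM6B, a histone demethylase (r = 0.993), and NDNF (r = 0.989). For DUSP6 they were ST3GAL2 (r = 0.99, rho 1), TNFRSF12A, a receptor of the TNF receptor family (r = 0.986), and CYP2U1 (r = 0.985). DUSP7 was followed by FOSL1, another AP-1 subunit (r = 0.99, rho 0.976), by SNAI2 (r = 0.983) and by its own relative DUSP2 (r = 0.979). Leaving out the 2 wells farthest from the member's median, the first-ranked genes had r = 0.981 for DUSP1, 0.989 for DUSP5, 0.976 for DUSP6 and 0.978 for DUSP7.

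The first-ranked gene was YWHAZ for DUSP10 (r = 0.991, and 0.974 without 2 wells), ZDHHC13 for DUSP8 (0.936 and 0.891) and ITFG2 for DUSP16 (0.942 and 0.879). No gene stood among the 3 closest of more than 1 member. In 0 of 16 groups of 4 wells (the 7 members and DUSP2) did a single well lie apart from the other 3 by Dixon's ratio at the 95% level, where about 0.8 would be found by chance.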
